A study of Mus musculus with 8 samples.

Results

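The genes described here encode the lysosome and the machinery of autophagy. They are a set of 48 named genes, taken by symbol from the deposited table of 17488 genes and divided by role into 3 transcription factors of the MiT/TFE family, 12 proteases, 7 glycosidases, 5 proteins of lipid handling with their cofactors (progranulin among them), 4 membrane proteins, 6 proton pump proteins and 11 autophagy proteins. All 48 had a row, and all 48 were among the 16157 genes that were tested. Their expression was read by RNA sequencing of whole neuroblastomas, tumour and stroma together, from 8 mice homozygous for TH-MYCN. The tyrosine hydroxylase promoter of this transgene directs human MYCN to sympathoadrenal cells, and every animal in both groups carried it. Treatment began at about 6 weeks of age at a tumour volume of 200 to 300 mm3. In the panobinostat group (n = 4) mice received 2 doses of 5 mg/kg, 24 h apart. In the vehicle group (n = 4) mice received 2 doses of vehicle on the same schedule. Tumours of both groups were taken 4 h after the second dose. Panobinostat blocks histone deacetylases, enzymes that take acetyl groups off histones and other proteins.

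Lysosomes are acidic organelles in which proteases, glycosidases and lipases break down material taken up from outside the cell or delivered from the cytoplasm by autophagosomes. The proton pump of their membrane, the V-ATPase, sets the acidity that these enzymes need. Many lysosomal genes carry a short palindromic element in their promoters that TFEB, TFE3 and MITF bind when these factors enter the nucleus. In tumours lysosomal enzymes are made by the cancer cells and, at high levels, by macrophages. Autophagy proteins act in steps, from the ULK1 kinase and the Beclin 1 lipid kinase complex to the conjugation of LC3 and GABARAP proteins to the growing membrane.

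Values are log2 CPM, where CPM is a gene's read count scaled by the effective size of its library. Values are given for vehicle libraries 1 to 4 and then panobinostat libraries 1 to 4. A change is the panobinostat mean minus the vehicle mean on that scale, with its standard error, and a gene rose or fell where limma gave a Benjamini-Hochberg adjusted p under 0.05 over all genes tested. Read totals lay between 22055658 and 23830026 in vehicle libraries and between 18664066 and 22235545 in panobinostat libraries. A member had from 57 to 101639 reads in any library. The groups also differed in other tissue. All 7 neuroblastoma markers were present in every library, with summed levels of 1444 to 2298 CPM with vehicle and 690 to 725 CPM with panobinostat, and 5 of the 7 fell. The 2 with no call were Th and Dbh, which encode enzymes of catecholamine synthesis. Mouse Mycn changed by -0.86 (SE 0.20). Panobinostat libraries held 39.3 to 2735 CPM of 7 adrenal cortex genes against 9.02 to 11.2 CPM with vehicle. Liver genes were highest in panobinostat libraries 3 and 4 (628 and 8472 CPM over 7 genes), kidney genes in library 3 (769 CPM over 3) and pancreas genes in library 4 (2622 CPM over 6). Panobinostat library 2 also held 445 CPM of pancreas genes, against 6.67 to 13.5 CPM in vehicle libraries.

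Transcripts of lysosomal enzymes were several times more abundant in panobinostat-treated tumours, and the median changes of the proton pump and autophagy classes were small. Of the 48 genes 39 rose, where 31.2% of all genes tested did. None of them fell, where 32.4% of all genes tested did, and the other 9 made no call. The median log2 change was 1.38 over the 48 genes and -0.02 over all genes tested. The rise was at least 2-fold for 30 members (20.7% of all genes) and at least 4-fold for 15 (9.17% of all genes). In 38 members the 4 panobinostat values all lay above the 4 vehicle values, which was the case for 28.5% of all genes tested. Together the 48 genes took 0.682, 0.516, 0.566 and 0.596% of the reads in the vehicle libraries and 1.85, 2.48, 2.32 and 1.76% in the panobinostat libraries. Proteases, glycosidases and the lipid class rose in 23 of 24 cases, with a median of 1.96. Of the proton pump and autophagy classes, 10 of 17 rose, with a median of 0.43.

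**Figure D1:**
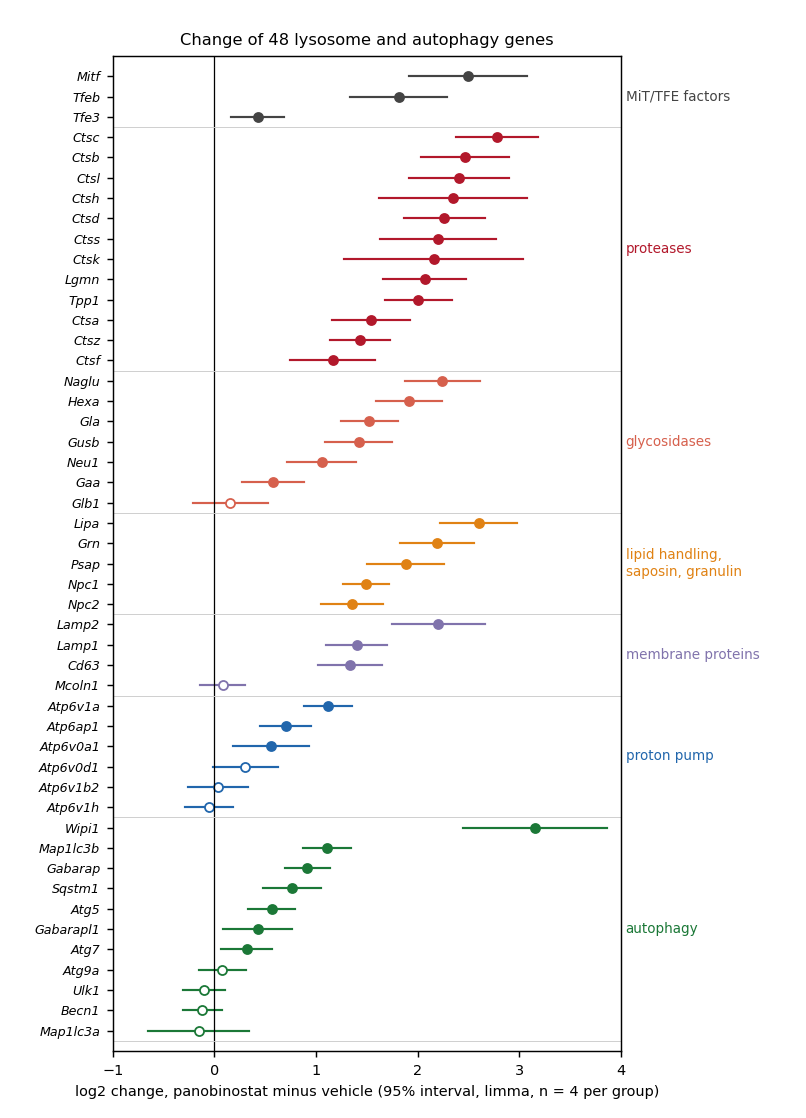
Log2 change of each gene (panobinostat minus vehicle, x axis) with its 95% interval from limma, n = 4 per group, sorted by size within 7 classes; filled points passed the test and open points did not. All 12 proteases lie above 1, and 7 of the 9 open points are proton pump or autophagy genes.

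Markers of macrophages were also higher with panobinostat. The macrophage list has 14 markers and holds no lysosomal gene. Of these 12 rose, Cd163 and Cd14 made no call, and the median change was 2.13. C1qa and C1qc, which encode chains of complement C1q, changed by 2.52 (SE 0.20) and 2.38 (SE 0.20). The summed level of the 14 was 365 to 767 CPM with vehicle and 1659 to 2830 CPM with panobinostat, and no marker was at 0 in any library. Markers of fibroblasts and mural cells rose in 10 of 10 cases (median 2.56, 1600 to 5125 CPM with vehicle and 9244 to 16585 CPM with panobinostat). Adipose markers rose in 5 of 5 cases (median 3.75), with sums of 22.5 to 625 CPM with vehicle, highest in library 1, and 1016 to 1537 CPM with panobinostat, and Lep was at 0 reads in vehicle library 4. Schwann cell markers rose in 5 of 6 cases (median 2.35), with sums of 15.6 to 49.0 CPM with vehicle and 49.5 to 261 CPM with panobinostat. The 6 endothelial markers made no call. Of the neutrophil markers, Csf3r rose (0.82, SE 0.28) and the other 3 measured made no call. Among vehicle libraries, library 1 was highest in the sums of macrophage markers (767 CPM) and of proteases (2630 CPM). The lowest was library 3 for the markers (365 CPM) and library 2 for the proteases (1872 CPM). Library 1 was also highest for the lipid class (1782 CPM) and membrane proteins (576 CPM). Library 4 was highest for the transcription factors, glycosidases, proton pump and autophagy genes (64.9, 393, 1062 and 1007 CPM). Among panobinostat libraries the order was 2, 3, 1 and 4 for macrophage markers and for proteases, from 2830 to 1659 CPM and from 12953 to 8654 CPM. In bulk tissue more cells of a type and more RNA per cell cannot be told apart. The part of macrophages, fibroblasts, fat, Schwann cells, adrenal cortex, liver, kidney and pancreas in the changes below was not tested. Without panobinostat libraries 3 and 4, 35 of the 48 rose and none fell (23.4% of all genes rose there). Without vehicle library 1 as well, a comparison chosen after the data were seen, 33 rose and none fell (24.9% of all genes). In both comparisons the panobinostat libraries kept still held other tissue. Library 1 had 717 CPM of adrenal cortex genes, and library 2 had 39.3 CPM of these and 445 CPM of pancreas genes.

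**Figure D2:**
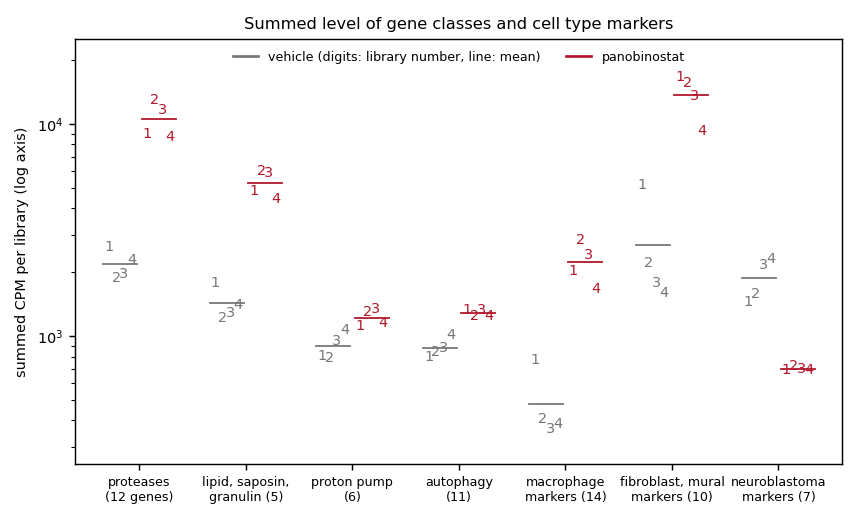
Summed CPM per library (log axis) of 4 gene classes and of the macrophage, fibroblast and mural, and neuroblastoma markers; each digit is a library number, grey for vehicle and red for panobinostat, and lines are group means. Protease sums run from 1872 to 2630 CPM with vehicle and 8654 to 12953 CPM with panobinostat, and vehicle library 1 stands above the other vehicle libraries for macrophage and fibroblast markers.

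The promoters of several members hold TCACGTG, the inner part of the element known from TFEB targets. They are shown because genes that share the same letters had changes of different size, a difference that was not tested. RefSeq promoters (GRCm38.p6, 250 bases before to 50 after a transcription start, both strands searched) were matched by symbol for 41 members (all but Ctsb, Ctsh, Npc1, Atp6v1b2, Atp6v1h, Map1lc3a and Becn1) and for 11536 genes tested. The motif TCACGTG was in at least 1 promoter of 12 of the 41 members (29.3%) and of 6.63% of all genes tested with a promoter. Its inner E-box CACGTG, which is also the site of MYC and MAX and is contained in every TCACGTG, was in 15 members (36.6%) and 11.4% of all genes. The full CLEAR element, a palindrome of 10 bases around TCACGTG, was in 0 of the 41 and in 0.728% of all genes. Of the 12 members with TCACGTG 9 rose, with a median change of 1.26 over the 12. Of the 29 without it 27 rose, with a median of 1.42. Of all 11536 genes tested with a promoter, 263 of the 765 with TCACGTG rose, and 3515 of the rest rose. Their medians with and without TCACGTG were 0.04 and 0.01. Lamp1, which encodes a main glycoprotein of the lysosomal membrane, has 4 E-boxes in the last 100 bases before its start (chr8:13159061-13159160, plus strand, GRCm38.p6), printed with each CACGTG in capitals.
Lamp1: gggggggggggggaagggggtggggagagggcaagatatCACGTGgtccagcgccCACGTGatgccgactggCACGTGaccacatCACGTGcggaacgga
The same 10 bases around the motif stood in promoters of Ctsa, Ctsd and Mcoln1, and another shared run of 10 in those of Naglu and Glb1. A further run, shared by Gla and Atp6v0d1, is not printed, and Gla changed by 1.52 (SE 0.12) and Atp6v0d1 by 0.30 (SE 0.14). In the following 30-base stretches the motif is in capitals, with an A after it where the palindrome goes on. They come from Ctsd (chr7:142387908-142387937, minus strand, 98 bases before the start), Mcoln1 (chr8:3500462-3500491, plus strand, 45 bases before), Naglu (chr11:101070009-101070038, plus strand, 73 bases before) and Glb1 (chr9:114401018-114401047, plus strand, 48 bases before). These starts are those of the RefSeq promoters. In the GENCODE M21 annotation Ctsd, Mcoln1 and Naglu begin further upstream, and their printed motifs lie inside the gene.
Ctsd: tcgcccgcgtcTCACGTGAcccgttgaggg
Mcoln1: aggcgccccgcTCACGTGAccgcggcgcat
Naglu: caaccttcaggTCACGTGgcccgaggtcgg
Glb1: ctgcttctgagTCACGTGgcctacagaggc
With the first context Ctsd changed by 2.26 (SE 0.18), Ctsa by 1.54 (SE 0.17) and Mcoln1 by 0.08 (SE 0.10). With the second Naglu changed by 2.25 (SE 0.16) and Glb1 by 0.16 (SE 0.16). A match describes these letters and shows no binding.

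The transcription factor genes themselves were all higher with panobinostat. Mitf, whose product also directs melanocyte, osteoclast and mast cell genes, lies on chromosome 6 (97807052 to 98021349) in GENCODE M21, an annotation of mm10. Its values were 2.85, 1.98, 1.96 and 1.74 with vehicle and 4.61, 4.95, 4.65 and 4.31 with panobinostat. It rose 5.66-fold, a log2 change of 2.50 (SE 0.26). Tfeb, the factor best known for lysosomal gene control, lies on chromosome 17 (47737030 to 47792419) and read 2.41, 2.05, 1.60 and 1.74 with vehicle and 3.91, 3.65, 3.91 and 3.59 with panobinostat. It rose by 1.81 (SE 0.21). Neither gene's groups overlapped, and both were the scarcest members per exon length in vehicle tumours, at 0.699 ± 0.296 (Mitf) and 0.654 ± 0.187 (Tfeb) RPKM, reads scaled by exon length and library total (mean ± SD, n = 4), levels that overlapped within their SD. Tfe3 was the most abundant of the family at 4.87 ± 0.517 on that scale, and read 5.52, 5.56, 5.39 and 5.86 with vehicle and 5.91, 6.11, 6.04 and 5.96 with panobinostat. Its rise was smaller, 0.42 (SE 0.12) with adjusted p = 0.0104 (limma), and the call was lost without panobinostat libraries 3 and 4 (0.43, adjusted p = 0.0760, limma). The melanocyte gene Tyr had 15 to 27 reads in vehicle libraries and 26 to 34 in panobinostat libraries. It made no call (0.64, SE 0.28, adjusted p = 0.0721, limma). All its panobinostat values lay above all vehicle values, as for 28.5% of all genes tested. The melanocyte genes Dct, Pmel and Mlana and the osteoclast gene Calcr had no row. Of the osteoclast genes, Ocstamp had 9 to 22 reads in vehicle and 14 to 24 in panobinostat libraries, and Dcstamp 1 to 8 and 7 to 16. Neither passed the filter for testing. Transcript levels do not show whether the factors were in the nucleus.

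All 12 lysosomal protease genes rose, by a median of 2.18, with adjusted p from 6.01e-06 to 0.00107 (limma), in the libraries whose macrophage markers were higher (median 2.13, all markers detected). In these libraries, read for every class below too, the median changes of fibroblast and mural, adipose and Schwann cell markers were 2.56, 3.75 and 2.35. Ctsc, the dipeptidyl peptidase that activates serine proteases of granules, changed most. It read 6.17, 5.48, 6.11 and 5.99 with vehicle and 8.68, 8.94, 8.89 and 8.36 with panobinostat, a change of 2.79 (SE 0.18). Ctsb, a cysteine protease with carboxydipeptidase activity, read 9.81, 9.25, 9.36 and 9.61 with vehicle and 11.71, 12.36, 12.12 and 11.70 with panobinostat, and changed by 2.46 (SE 0.19). Ctsl, a cysteine endopeptidase, read 7.57, 6.80, 6.51 and 6.63 with vehicle and 9.41, 9.41, 9.29 and 9.01 with panobinostat, and changed by 2.41 (SE 0.22). In each of these 3 genes every panobinostat library lay above every vehicle library. The exons of Ctsl share 26.8% of their length with an antisense gene, whose reads cannot be told apart without strand.

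Ctsd encodes the main aspartic protease of lysosomes and holds a promoter site printed above. Its values were 9.51, 9.21, 9.29 and 9.66 with vehicle and 11.40, 11.99, 11.89 and 11.44 with panobinostat, and it changed by 2.26 (SE 0.18). Per exon length Ctsd stood at 274 ± 35.6 in vehicle and 1449 ± 323 in panobinostat tumours (RPKM, mean ± SD, n = 4). Its level was thus next to that of Psap at the top of the 48 genes, and 34.4% of its exon length is shared with an overlapping gene model on the same strand. Lgmn, the asparaginyl endopeptidase legumain, read 7.85, 7.32, 7.19 and 7.21 with vehicle and 9.31, 9.78, 9.60 and 9.16 with panobinostat, and changed by 2.07 (SE 0.18). Tpp1, a tripeptidyl peptidase whose loss causes a neuronal ceroid lipofuscinosis, read 5.82, 5.59, 5.48 and 5.25 with vehicle and 7.43, 7.81, 7.61 and 7.33 with panobinostat, and changed by 2.01 (SE 0.15). No values of the groups overlapped in these 3 genes.

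Ctss, Ctsk and Ctsh had the widest range of the 12 proteases among vehicle tumours. Ctss, which trims the invariant chain in antigen-presenting cells, read 6.68, 5.65, 5.69 and 5.51 with vehicle and 8.04, 8.37, 8.20 and 7.73 with panobinostat, a change of 2.20 (SE 0.25). Ctsk, the collagen-degrading cathepsin of osteoclasts and fibroblasts, read 3.42, 2.16, 2.74 and 1.44 with vehicle and 4.69, 5.01, 4.59 and 4.11 with panobinostat, a change of 2.16 (SE 0.39). Ctsh, an aminopeptidase, read 5.73, 4.61, 4.40 and 3.94 with vehicle and 6.97, 7.15, 7.17 and 6.80 with panobinostat, a change of 2.35 (SE 0.32). Vehicle library 1 was highest of its group in all 3. Against the mean of the other vehicle libraries it also held 1.99 times the macrophage and 2.75 times the fibroblast and mural marker sum. Its ratio was 2.29 for endothelial, 3.27 for T cell, 6.88 for adipose and 14.1 for B cell markers. The ratio was 1.28 for neutrophil, 0.72 for neuroblastoma and 0.47 for Schwann cell markers. Ctsk and Ctss lie 17423 bases apart on chromosome 3. The remaining proteases had smaller log2 changes. Ctsa, a carboxypeptidase that protects beta-galactosidase and sialidase, read 7.17, 6.74, 6.53 and 7.04 with vehicle and 8.28, 8.69, 8.56 and 8.11 with panobinostat, a change of 1.54 (SE 0.17). Ctsz, a carboxypeptidase, read 7.01, 6.73, 7.10 and 7.01 with vehicle and 8.15, 8.59, 8.59 and 8.27 with panobinostat, a change of 1.43 (SE 0.13). Ctsf, a cysteine protease, read 3.86, 3.80, 4.34 and 4.56 with vehicle and 5.13, 5.26, 5.36 and 5.48 with panobinostat, a change of 1.17 (SE 0.18). In Ctsf vehicle library 1 was not the highest of its group, library 4 was.

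**Figure D3:**
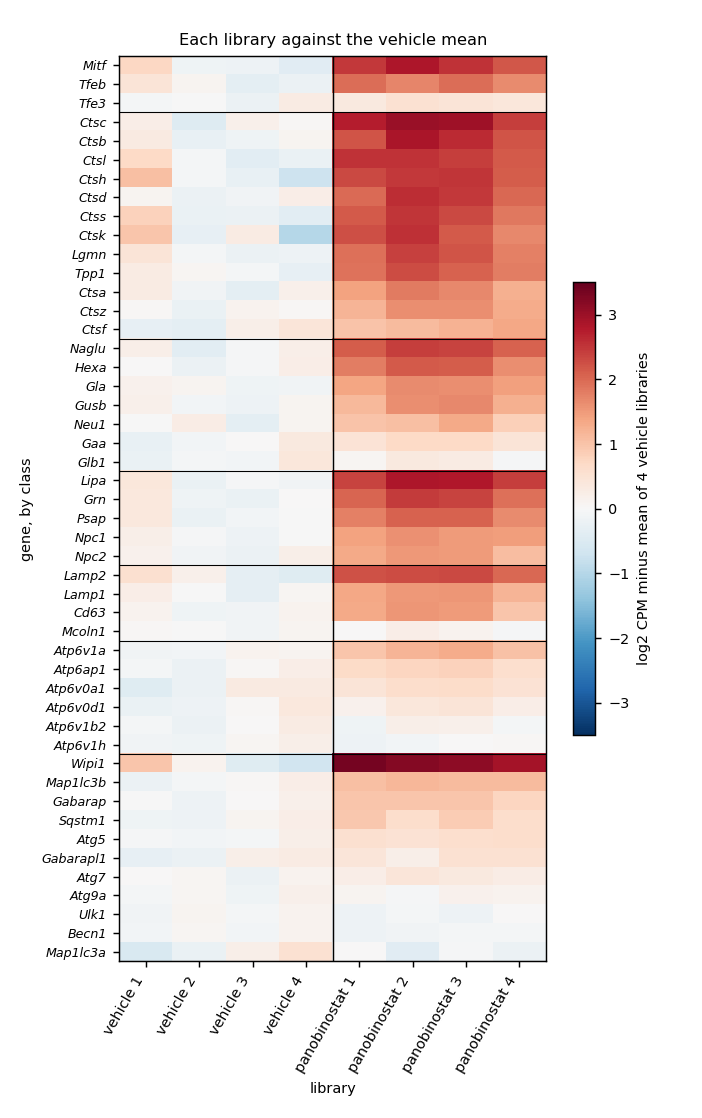
Log2 CPM of each gene in each of the 8 libraries minus the mean of the 4 vehicle libraries (colour scale), with genes in the same order and classes as in the plot of changes. Proteases, Lipa, Lamp2, Mitf and Wipi1 are red in all 4 panobinostat libraries, paler for Ctsa, Ctsz and Ctsf. Vehicle library 1 is tinted red for Ctsh, Ctsk, Ctss and Wipi1.

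Glycosidase genes rose in 6 of 7 cases, with a median of 1.42, beside the same macrophage markers (median 2.13). Naglu, which cleaves N-acetylglucosamine from heparan sulfate, read 3.62, 3.03, 3.36 and 3.62 with vehicle and 5.54, 5.82, 5.77 and 5.48 with panobinostat, a change of 2.25 (SE 0.16). Hexa, the alpha subunit of the beta-hexosaminidase that degrades gangliosides, read 6.16, 5.92, 6.10 and 6.35 with vehicle and 7.92, 8.29, 8.24 and 7.76 with panobinostat, a change of 1.92 (SE 0.14). Gla, the alpha-galactosidase lacking in Fabry disease, read 3.95, 3.91, 3.67 and 3.69 with vehicle and 5.19, 5.46, 5.44 and 5.23 with panobinostat, a change of 1.52 (SE 0.12). Every panobinostat value lay above every vehicle value in these 3 genes. Gusb, the beta-glucuronidase, read 6.19, 5.91, 5.84 and 6.11 with vehicle and 7.15, 7.64, 7.69 and 7.26 with panobinostat, a change of 1.42 (SE 0.15). Neu1, the lysosomal sialidase, read 5.65, 5.93, 5.30 and 5.74 with vehicle and 6.64, 6.72, 6.99 and 6.50 with panobinostat, a change of 1.06 (SE 0.15). Gaa, the acid alpha-glucosidase that degrades glycogen, rose by less, 0.58 (SE 0.14). Glb1, the lysosomal beta-galactosidase, made no call: it read 4.36, 4.52, 4.50 and 5.01 with vehicle and 4.66, 4.93, 4.88 and 4.55 with panobinostat, with overlapping groups and a change of 0.16 (SE 0.16, 95% interval -0.21 to 0.52). Naglu and Glb1 stood at 3.79 ± 0.711 and 7.62 ± 1.27 RPKM in vehicle tumours and at 19.4 ± 2.48 and 9.20 ± 1.24 with panobinostat, so their order was exchanged. Without vehicle library 1 and panobinostat libraries 3 and 4, Gaa made no call (0.50, adjusted p = 0.0606, limma).

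Genes of lipid handling and the saposin and granulin precursors rose in 5 of 5 cases, with a median of 1.88. Lipa, the acid lipase that frees cholesterol and fatty acids from lipoprotein esters, read 5.75, 5.10, 5.29 and 5.23 with vehicle and 7.70, 8.18, 8.15 and 7.75 with panobinostat, and changed by 2.60 (SE 0.17). Grn, whose product progranulin is a lysosomal and secreted glycoprotein, read 7.52, 7.03, 6.94 and 7.17 with vehicle and 9.20, 9.62, 9.54 and 9.08 with panobinostat, and changed by 2.19 (SE 0.16). Psap, the precursor of the saposins that present sphingolipids to their hydrolases, read 10.39, 9.80, 9.93 and 10.004 with vehicle and 11.80, 12.09, 12.08 and 11.67 with panobinostat, and changed by 1.88 (SE 0.17). The groups of all 3 lay apart. Psap was the most abundant member per exon length in vehicle tumours, at 363 ± 78.8 RPKM, and with panobinostat it stood at 1445 ± 223, within the spread of Ctsd. Npc1 and Npc2 pass cholesterol out of the lysosome in turn, Npc1 in the membrane and Npc2 in the lumen. Npc1 read 5.75, 5.50, 5.37 and 5.52 with vehicle and 6.95, 7.14, 7.04 and 7.02 with panobinostat, a change of 1.50 (SE 0.10). Npc2 read 7.19, 6.92, 6.83 and 7.25 with vehicle and 8.37, 8.57, 8.55 and 8.12 with panobinostat, a change of 1.35 (SE 0.14). Both kept their groups apart, and Npc1 had the smallest standard error of the class.

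Among the membrane proteins 3 of 4 rose, beside higher macrophage markers (median 2.13). Lamp2, which also serves chaperone-mediated autophagy, read 6.68, 6.30, 5.81 and 5.68 with vehicle and 8.35, 8.39, 8.41 and 8.13 with panobinostat, and changed by 2.20 (SE 0.20). Lamp1, whose 4 E-boxes are printed above, read 8.34, 8.10, 7.79 and 8.17 with vehicle and 9.45, 9.61, 9.64 and 9.30 with panobinostat, and changed by 1.40 (SE 0.13). Cd63, a tetraspanin of late endosomes and exosomes, read 6.72, 6.44, 6.47 and 6.71 with vehicle and 7.90, 8.14, 8.09 and 7.56 with panobinostat, and changed by 1.34 (SE 0.14). The groups did not overlap in any of the 3. Mcoln1, the calcium channel of the lysosomal membrane and a textbook TFEB target, read 5.51, 5.45, 5.33 and 5.55 with vehicle and 5.47, 5.68, 5.59 and 5.43 with panobinostat. Its groups overlapped, and the change of 0.08 (SE 0.10) had a 95% interval of -0.14 to 0.31. With libraries centred on their medians the change was -0.03.

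The proton pump genes had smaller changes than most hydrolase genes, a difference that was not tested. Of 6 subunit genes 3 rose, and the median change was 0.43, beside macrophage markers at 2.13. Atp6v1a, the catalytic subunit of the V1 sector, read 7.04, 7.06, 7.27 and 7.26 with vehicle and 8.12, 8.36, 8.44 and 8.17 with panobinostat, and changed by 1.12 (SE 0.10). Atp6ap1, an accessory subunit, changed by 0.70 (SE 0.11) and Atp6v0a1, the a subunit isoform rich in neurons, by 0.56 (SE 0.17). The call of Atp6v0a1 was lost with median centring (0.44, adjusted p = 0.0525, limma) and without panobinostat libraries 3 and 4 (0.53, adjusted p = 0.0927, limma). Atp6v0d1 (0.30, SE 0.14) made no call but rose without vehicle library 4 (0.43, adjusted p = 0.00812, limma), with library weights (0.50), after quantile normalization (0.53) and when scaled by total reads (0.42). Atp6v1b2, the B subunit that alternates with the catalytic subunit, read 8.23, 8.08, 8.31 and 8.58 with vehicle and 8.15, 8.50, 8.49 and 8.22 with panobinostat. Its change was 0.04 (SE 0.13), with a 95% interval of -0.26 to 0.33, and it rose only after quantile normalization (0.38). Atp6v1h, which couples the sectors, changed by -0.05 (SE 0.11, 95% interval -0.29 to 0.18), with the opposite sign under quantile normalization (0.12). Naglu, which rose by 2.25, begins 6292 bases after the end of Atp6v0a1 on chromosome 11.

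Autophagy genes were split, with 7 of 11 higher and a median of 0.43, beside macrophage markers at a median of 2.13. Wipi1, which binds phosphatidylinositol 3-phosphate on the forming autophagosome, had the largest change of the 48 genes. It lies on chromosome 11 (109573331 to 109611967) and read 4.12, 3.26, 2.73 and 2.48 with vehicle and 6.50, 6.37, 6.29 and 6.05 with panobinostat. This is an 8.91-fold rise, 3.15 (SE 0.32) with adjusted p = 3.57e-05 (limma). All panobinostat values lay above all vehicle values, and the vehicle values spanned more than 1 log2 unit, highest in library 1. Per exon length Wipi1 rose from 2.10 ± 1.21 to 18.4 ± 2.30 RPKM.

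Genes of the ubiquitin-like proteins that are joined to the autophagosome membrane ranged from no call to a rise of 2.16-fold. Map1lc3b, encoding the LC3B protein used as a marker of autophagosomes, read 6.12, 6.27, 6.36 and 6.57 with vehicle and 7.39, 7.49, 7.44 and 7.43 with panobinostat, and rose by 1.11 (SE 0.10). Gabarap read 6.66, 6.49, 6.68 and 6.84 with vehicle and 7.63, 7.63, 7.64 and 7.42 with panobinostat, a rise of 0.92 (SE 0.10). Gabarapl1 rose by 0.43 (SE 0.15) with overlapping groups. Leaving out vehicle library 1 or 2, or panobinostat library 1, 3 or 4, each ended its call (limma adjusted p between 0.0619 and 0.0840). So did median centring (0.31, limma adjusted p = 0.105) and leaving out panobinostat libraries 3 and 4 together (0.32, limma adjusted p = 0.232). An opposite-strand transcript shares 28.3% of its exon length. Map1lc3a, encoding LC3A, read 4.87, 5.18, 5.61 and 5.94 with vehicle and 5.41, 5.00, 5.37 and 5.20 with panobinostat. It made no call, at -0.15 (SE 0.22) with a 95% interval of -0.65 to 0.34, and its vehicle libraries differed by more than 1 log2 unit. Sqstm1, the cargo receptor p62, rose by 0.76 (SE 0.13) with no overlap of the groups.

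Ulk1 and Becn1 made no call. Ulk1, the initiating kinase, read 7.16, 7.38, 7.21 and 7.41 with vehicle and 7.10, 7.23, 7.12 and 7.29 with panobinostat, a change of -0.10 (SE 0.09). Becn1, a subunit of the lipid kinase complex, read 6.70, 6.86, 6.69 and 6.92 with vehicle and 6.61, 6.66, 6.71 and 6.71 with panobinostat, a change of -0.12 (SE 0.09). Their 95% intervals were -0.31 to 0.10 and -0.31 to 0.07, and both changes were above 0 after quantile normalization (0.15 and 0.09). Becn1 fell with median centring (-0.24, adjusted p = 0.0277, limma), and its exons share 43.9% of their length with the opposite-strand gene Cntd1. Atg9a, a lipid scramblase of autophagosome precursors, changed by 0.08 (SE 0.10, 95% interval -0.15 to 0.31), and by -0.04 with median centring. An overlapping gene model on its strand shares 31.8% of its exon length. Of the conjugation enzymes Atg5 rose by 0.57 (SE 0.10) and Atg7 by 0.32 (SE 0.11). Without vehicle library 1 and panobinostat libraries 3 and 4, Atg5 made no call (0.52, limma adjusted p = 0.0573). The Atg7 call ended when vehicle library 1 or 3, or panobinostat library 2, 3 or 4, was left out (changes of 0.24 to 0.33, limma adjusted p between 0.0521 and 0.0959), and with median centring (0.20, limma adjusted p = 0.114). It also ended without panobinostat libraries 3 and 4 (0.33, limma adjusted p = 0.145).

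**Figure D4:**
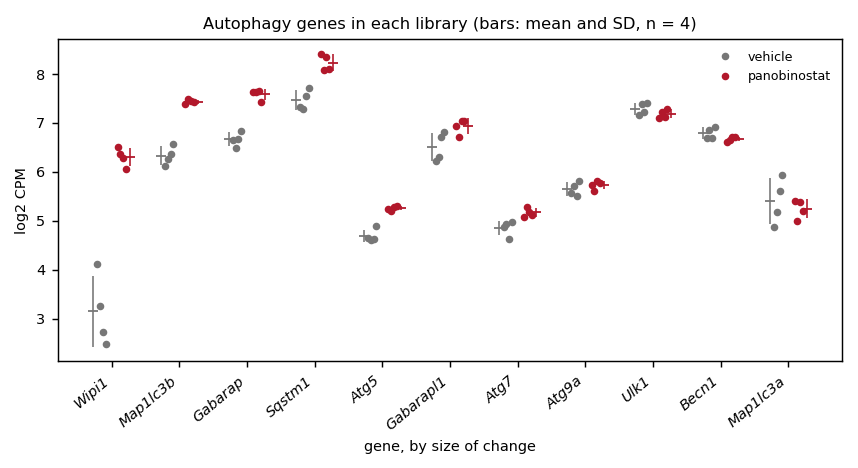
Log2 CPM of the 11 autophagy genes in each library (points, grey for vehicle and red for panobinostat), with the mean and SD of each group (n = 4), ordered by size of change. Wipi1 and Map1lc3b stand clear of their vehicle values, while the points of Atg9a, Ulk1, Becn1 and Map1lc3a overlap.

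Other genes of these pathways were read in the same fit. A list of 161 further lysosome and autophagy genes held 159 with a row and 156 that were tested, of which 94 rose and 21 fell, with a median of 0.66, where 31.2% of all genes tested rose and 32.4% fell. Further proteases and protease inhibitors rose in 9 of 9 tested cases (median 1.81), among them the cystatin gene Cst3 (1.73, SE 0.15), Dpp7 (1.83, SE 0.17), a dipeptidyl peptidase, and Scpep1 (0.97, SE 0.10), a carboxypeptidase. Among further glycosidases, lipid hydrolases and enzyme-sorting genes 29 of 33 rose and 1 fell (median 1.37), with Siae, a sialic acid esterase, at 2.08 (SE 0.14) and Manba, the beta-mannosidase, at 2.04 (SE 0.15). Of 25 further membrane protein genes 17 rose and 3 fell (median 0.88). They include Ostm1 (1.83, SE 0.13), a partner of a lysosomal chloride transporter, and the macrophage gene Cd68 (2.25, SE 0.18).

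Of 15 further proton pump genes 8 rose and 1 fell (median 0.59). The smallest adjusted p values were those of Tcirg1 (2.07, SE 0.23) and Atp6v0d2 (2.28, SE 0.28), the a and d subunit isoforms abundant in osteoclasts and macrophages, followed by Atp6v1d (0.79, SE 0.10). Atp6v0d1, the widely expressed d isoform among the members, changed by 0.30. Of 45 further autophagy and fusion genes 20 rose and 9 fell (median 0.26). Tecpr1, which links autophagosomes with lysosomes, rose by 2.25 (SE 0.12) and Calcoco1 by 1.04 (SE 0.09), while Vps16, a subunit of the tethering complexes, changed by -1.17 (SE 0.09). Of 29 regulators 11 rose and 7 fell (median 0.12), shares near the 31.2% and 32.4% of all genes tested. Ppp3cb, a catalytic subunit of calcineurin, which dephosphorylates TFEB, fell by 0.94 (SE 0.09). Zkscan3, reported as a repressor of autophagy genes, rose by 0.91 (SE 0.10) and the forkhead factor Foxo1 by 2.58 (SE 0.32). Without panobinostat libraries 3 and 4, 79 of the 156 rose and 13 fell, where 23.4% of all genes tested rose and 4042 of the 16157 fell.

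**Figure D5:**
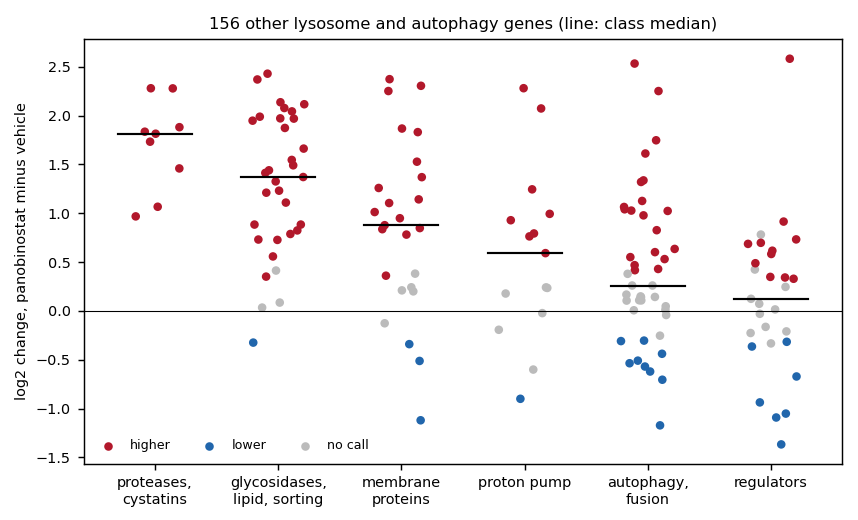
Log2 change (y axis) of 156 other lysosome and autophagy genes by class, each point a gene (red higher, blue lower, grey no call) and each line the class median. Medians step down from 1.81 for proteases and cystatins to 0.12 for regulators.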

How the data were processed

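Whole-tumour RNA of 4 vehicle and 4 panobinostat mice was sequenced after TruSeq library preparation, per the labels' protocols. Reads were handled with CASAVA 1.8.2, TopHat2, HTSeq and limma on build mm10, per the submitters' processing notes. For the gene annotation and the strand setting of the counting, a statement is not given in the sources used here. The deposited values are log2 CPM made by the authors, with 0.5 added to each count and an effective library size as divisor, as read from the values: 100% were within 0.001 of a whole read. The table lists 17488 genes, each with at least 13 reads in all.

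Genes at 1 CPM or more in at least 4 of 8 libraries (16157) entered a linear model in limma 3.58.1 under R 4.3.3 (two-sided, eBayes with a variance trend), with Benjamini-Hochberg adjustment over all of them. A call needed an adjusted p under 0.05. The script was tested on simulated data. Replicate numbers only name samples, and litter or batch was not examined. Levels per length used recovered reads and GENCODE M21 exon lengths. Promoters are RefSeq (GRCm38.p6). A planned comparison of the LC3 and GABARAP proteins was not run.

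The members and lists were chosen with earlier results of these data known. All members could be named, with values in every library for the regulators and for members called at a log2 change of at least 1. Of other pathway genes the 3 per class with the smallest adjusted p were named, except that some are not reported here, and of marker lists at most 2, with Mycn. Any other gene, such as Cd163, Cd14, Csf3r, Th, Dbh, Tyr, Ocstamp and Dcstamp, and members with full values beyond that rule, were chosen after values were seen. Alternatives covered filters, variance settings, library weights, scaling, pseudocount, voom weights on recovered reads, threshold and libraries left out.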

Additional observations from a re-analysis of the deposited data

Results flagged for a closer look

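Within the groups of 4, each gene's highest and lowest values were compared with the other values of the group, over 96 groups (48 genes in 2 treatments). In 3 of them the gap relative to the group's range exceeded Dixon's 95% critical value, and chance alone flags about 1 in 20 such groups. Ctss stood at 6.68 log2 CPM in vehicle library 1, where the other vehicle libraries lay between 5.51 and 5.69. Gabarap stood at 7.42 in panobinostat library 4, where the others of its group lay between 7.63 and 7.64. Atg5 stood at 4.89 in vehicle library 4, where the others lay between 4.61 and 4.64.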

How the results depend on the processing

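Over 21 alternatives, 33 of the 39 members that rose did so under each, and 6 lost the call under at least 1 (Tfe3, Gaa, Atp6v0a1, Gabarapl1, Atg5 and Atg7). The count of members that rose was 37 to 40 with each library left out in turn, 36 with median centring, 41 after quantile normalization, 35 at an adjusted p under 0.01 (limma), 35 without panobinostat libraries 3 and 4, and 33 without vehicle library 1 as well, an alternative added after seeing the data. Of all 16157 genes tested, the counts in the same order were 4467 to 5106, 4515, 4587, 3908, 3786 and 4028. The members' median was 1.50 after quantile normalization and 1.50 with read totals, and 1.26 with median centring, which also made 1 member (Becn1) fall. These scalings moved the median of all genes from -0.02 to -0.14 (quantile normalization and median centring) and 0.10 (read totals). Other pathway genes that fell numbered 13, in place of 21, in both comparisons without panobinostat libraries 3 and 4, where fewer libraries entered. Of all genes tested 4042 and 3979 fell there, in place of 5241. Signs turned only among members with no call. Atp6v1h was 0.070 with library weights, 0.12 after quantile normalization and 0.065 with read totals, and Map1lc3a was 0.076 with library weights. After quantile normalization Becn1 was 0.090 and Ulk1 0.15, and Ulk1 was 0.014 with read totals. With median centring Mcoln1 was -0.034, Atp6v1b2 -0.080 and Atg9a -0.038. Without vehicle library 1 and panobinostat libraries 3 and 4, Atp6v1b2 was -0.0032 and Atg9a -0.0048. With each library left out in turn Atp6v1b2 ran from -0.036 to 0.13, Atp6v1h from -0.11 to 0.018 and Map1lc3a from -0.33 to 0.026. Beyond the scalings' own shift the cause was not tested. Without gene length 7 of the 10 most abundant members stayed in that place, and 11 members held TCACGTG in the bases before the start alone. No paired analysis was possible because the labels give no replicate numbers that the groups share. At 19.3 to 22.6 reads per CPM, depth limits only the scarcest members, down to 57 reads.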

Other observations

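The genes of the wider lysosome and autophagy list named here were chosen after their values were seen. Components of mTORC1 and of its amino acid input moved in both directions. Rragd, a GTPase that recruits mTORC1 to lysosomes, changed by -1.37 (SE 0.20), Rragb by -1.09 (SE 0.15), the mTORC1 subunit Mlst8 by -1.05 (SE 0.17) and Rptor by -0.67 (SE 0.12), while Mtor itself made no call at 0.02 (SE 0.11). Of the same input Rraga (0.34, SE 0.09), Rragc (0.33, SE 0.12), Lamtor2 (0.69, SE 0.12), Lamtor3 (0.35, SE 0.09), Lamtor4 (0.49, SE 0.14), Slc38a9 (0.58, SE 0.16) and Nprl2 (0.62, SE 0.13) rose, and Nprl3 (-0.36, SE 0.12) fell. Rheb, which is not part of that input, also fell (-0.32, SE 0.08). Abca2, a lipid transporter rich in the nervous system, changed by -1.12 (SE 0.10). Atp6v0e2, an e subunit isoform of the proton pump, changed by -0.90 (SE 0.24). Of the autophagy genes, the kinase Ulk2 changed by -0.70 (SE 0.10), Wdr45b, a relative of Wipi1, by -0.62 (SE 0.11), and Pik3c3, the lipid kinase that works with Beclin 1, by -0.54 (SE 0.12). In each of these that fell, all 4 panobinostat values lay below all 4 vehicle values. Such separation was not counted over all genes tested, of which 32.4% fell. Neuroblastoma markers fell in 5 of 7 cases (median -2.04) in the same libraries, and their part in these values was not tested. Tfec, the fourth MiT/TFE gene, made no call at 0.42 (SE 0.46).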
